A study of Arabidopsis thaliana with 8 samples.

Results

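The genes described are 44 Arabidopsis loci annotated as integral membrane proteins, among them amino acid, sugar, ion and drug carriers, vesicle proteins of the SNARE type, proteins of the endoplasmic reticulum and membrane-bound enzymes. They were chosen from the authors' deposited tables of brassinosteroid-responsive probe sets, which name 733 of the 22746 probe sets measured, 692 of them with 1 locus. Of these, 65 carried the Gene Ontology component "integral to membrane". Probe sets with a chloroplast term (3), an endomembrane system term (12), a kinase activity term (6) or a term for regulation of transcription (1) were left out, 1 of them on 2 of these grounds. All 44 loci matched the RefSeq gene table of assembly TAIR10.1, and 24 carried a transport term.

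Shoots above the medium were taken from 21-day-old seedlings of ecotype Columbia that had grown on 24-epibrassinolide (EBR), a synthetic brassinosteroid, at 1 µM. Control seedlings grew on 0.01% ethanol. Both arms were sampled unstressed (0 h), after 1 h and after 3 h at 43°C, and after 6 h of recovery at 22°C that followed 3 h of heat. Each treatment pooled no fewer than 30 seedlings. Each of the 8 groups had 1 deposited value per probe set of the ATH1 array, made from 3 arrays that the labels call biological replicates. The design asks how EBR alters transcript levels before, during and after heat. EBR was in the medium throughout growth, so an early response and an adaptation over 21 days cannot be told apart. In whole shoots, fewer cells of a type and less RNA per cell cannot be told apart either.

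Integral membrane proteins span the lipid bilayer. Carriers among them move sugars, amino acids and ions, often by coupling them to the proton gradient, while channels let ions pass down their gradient. SNARE proteins drive the fusion of vesicles with their target membrane, and derlins and BAX inhibitor proteins act in the endoplasmic reticulum, where heat burdens protein folding. Brassinosteroids are steroid hormones perceived by a receptor kinase at the plasma membrane, and they promote cell expansion, for which solutes and new wall material must be moved across membranes.

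The EBR effect is given below as the log2 ratio of EBR to control at the same stage, from the deposited value table, always in the order 0 h, 1 h, 3 h and recovery. Since each group has 1 value, the stages give the only spread, and the SD of a mean ratio is over 4 stages. The limma test asked whether that mean differed from 0, with variances moderated and p adjusted over all 22746 probe sets. "Rose" and "fell" stand for an adjusted p under 0.05 in it. The authors had already selected these probe sets on the same samples, with a 2-way ANOVA (corrected treatment p up to 0.05) and a 2-fold threshold. The calls for members are therefore a description and not independent evidence of an EBR effect. The array's 4 pairs of control probe sets for the 3′ and 5′ ends of a transcript, a sign of RNA quality, moved with stage. Their 3′ to 5′ ratio was higher with EBR in all 4 pairs at 1 h (log2 0.29 to 0.57) and lower in all 4 at recovery (-0.47 to -0.08), and the part of this in the ratios at those stages was not tested. Of 16 marker genes for shoot, root, flower and other cell types, 1 was listed in the authors' deposited tables, so the tissue label could not be checked further.

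More of the membrane protein genes were higher with EBR than lower. Over 4 stages 25 members rose and 6 fell, while 13 had adjusted p-values from 0.0512 to 0.404 by limma. Among all probe sets 5.06% rose and 5.91% fell, shares against which the members cannot be read because of their selection. Of the other listed probe sets with 1 locus 43.5% rose and 26.1% fell, beside 56.8% and 13.6% of the members. The mean ratio was above 0 in 34 of 44 members (77.3%), in 61.6% of the other 648 listed probe sets with 1 locus and in 40.3% of all probe sets. The median of the mean ratios was 0.44 for the members, 0.33 for the other listed probe sets and -0.03 for all. The ratio was above 0 at all 4 stages for 30 members and below 0 at all 4 for 8. The remaining 6 changed sign. The ratio thus kept 1 sign in 86.4% of members, beside 80.2% of the other listed probe sets and 32.6% of all.

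**Figure D1:**
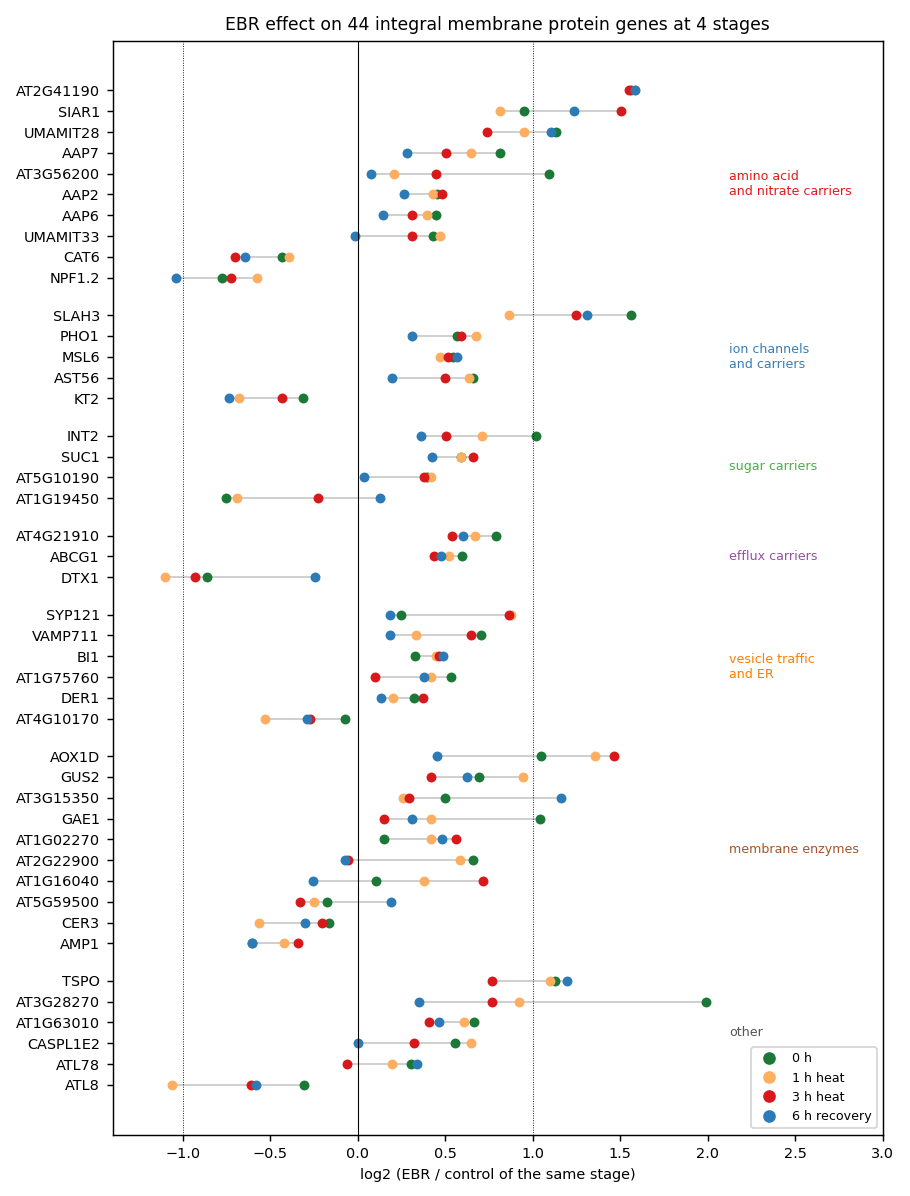
Each row is 1 of the 44 genes, grouped by role, and each point is the log2 ratio of EBR to control at 1 stage on the horizontal axis; grey bars join the lowest and highest stage and dotted lines mark 2-fold. In 30 rows all points lie right of 0 and in 8 rows all lie left of it, and AT2G41190 is the gene with all 4 points beyond 2-fold.

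Few members reached 2-fold at any given stage. At 0 h, 9 were at least 2-fold higher and 0 lower, where 0.95% and 0.123% of all probe sets were. At 1 h, 3 were higher and 2 lower (0.677% and 0.123% of all), and at 3 h, 4 were higher and 0 lower (0.818% and 0.154%). At recovery, a stage without a table of its own among those deposited, 6 were higher and 1 lower (0.585% and 0.365%). Of the other listed probe sets, 16.4%, 13.7%, 14.5% and 7.41% were at least 2-fold higher at the 4 stages in order, where 20.5%, 6.82%, 9.09% and 13.6% of the members were. In all, 11 members (25%) were at least 2-fold higher and 3 (6.82%) lower at some stage, beside 24.5% and 6.17% of the other listed probe sets and 1.79% and 0.572% of all. An approximate error for a single stage was read from the control columns, whose shortfall from 1 was taken to measure the spread of the control arrays. By it, 27, 25, 20 and 15 members lay at least 3 standard errors from 0 at the 4 stages in order, beside 14.5%, 17.3%, 16.6% and 16.5% of all probe sets. In shares these were 61.4%, 56.8%, 45.5% and 34.1% of members. Of the other listed probe sets 64.0%, 64.5%, 62.8% and 37.7% lay as far from 0, so the members did not exceed them. The approximate SD was 0.21 at the median of the members and ranged from 0.055 for AT1G63010 to 0.54 for AT2G41190.

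Among the 10 amino acid and nitrate carriers, 6 rose, 2 fell and 2 did not pass the test. The highest mean ratio of any member belonged to AT2G41190, which the authors' annotation gives as an amino acid transmembrane transporter. Its deposited EBR values were 2.86, 2.96, 2.85 and 2.66 at the 4 stages, beside control values of 0.968, 0.986, 0.974 and 0.89. The log2 ratios were 1.56, 1.59, 1.55 and 1.58, so that the EBR effect was nearly the same before heat, during it and at recovery (mean 1.57 ± 0.018 SD, adjusted p = 5.52e-05 by limma). This spread between stages was far smaller than the approximate spread between the gene's control arrays (0.54). The authors' deposited table gives 2.13, 2.10 and 2.48 for it at 0 h, 1 h and 3 h.

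SIAR1 (UMAMIT18) and UMAMIT28 belong to a family of carriers that move amino acids in and out of cells. SIAR1 had ratios of 0.95, 0.81, 1.5 and 1.23 (mean 1.12 ± 0.31, adjusted p = 0.0023 by limma). UMAMIT28 had 1.13, 0.95, 0.74 and 1.10 (mean 0.98 ± 0.18, adjusted p = 0.00145). Both were as high at recovery as before heat or close to it. UMAMIT33, of the same family, reached 0.43, 0.47 and 0.31 but stood at -0.01 at recovery, and its mean of 0.30 did not pass the test (adjusted p = 0.0766).

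The amino acid permeases import amino acids together with protons. AAP7 rose, with ratios of 0.82, 0.65, 0.50 and 0.28 that were highest before heat and lowest at recovery (adjusted p = 0.0114 by limma). AAP2 and AAP6 rose by less, with means of 0.41 and 0.32, and were also lowest at recovery (0.27 and 0.14). AT3G56200, another annotated amino acid transporter, was 2-fold higher at 0 h only (1.09, 0.20, 0.45 and 0.07, adjusted p = 0.105).

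CAT6 and NPF1.2 went the other way. CAT6, a cationic amino acid transporter, had ratios of -0.43, -0.39, -0.70 and -0.64 and fell (mean -0.54 ± 0.15, adjusted p = 0.00734 by limma). NPF1.2, a nitrate transporter of the NRT1/PTR family, had -0.77, -0.57, -0.72 and -1.04 (mean -0.78 ± 0.19, adjusted p = 0.00294). Both were below control at every stage, and NPF1.2 was the member that was at least 2-fold lower at recovery.

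Of the 5 ion channels and carriers, 4 rose and 1 fell. SLAH3, an anion channel homologous to the guard cell channel SLAC1, had ratios of 1.56, 0.87, 1.25 and 1.31 (mean 1.25 ± 0.29, adjusted p = 0.00146 by limma). In the value table it was thus beyond 2-fold at every stage but 1 h of heat, where the authors' deposited table gives 1.61. The other genes that rose had smaller ratios. PHO1, which exports phosphate to the xylem, had 0.57, 0.68, 0.59 and 0.31, and the sulphate transporter AST56 (SULTR2;2) had 0.66, 0.64, 0.50 and 0.20. Both were lowest at recovery. MSL6, of a family of mechanosensitive channels, had 0.54, 0.47, 0.52 and 0.57 (mean 0.52 ± 0.042). In the authors' deposited table its EBR effect varied more, at 0.73, 0.32 and 0.88 at 0 h, 1 h and 3 h. The potassium transporter KT2 was below control throughout, at -0.31, -0.68, -0.43 and -0.73, and fell (mean -0.54 ± 0.20, adjusted p = 0.0102 by limma).

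Of the 4 sugar carriers, 2 rose and 0 fell by limma. INT2, an inositol transporter, had ratios of 1.02, 0.71, 0.50 and 0.36, highest before heat (mean 0.65 ± 0.29, adjusted p = 0.0115 by limma). SUC1, which takes up sucrose with protons, had 0.59, 0.59, 0.66 and 0.42 (mean 0.57 ± 0.10, adjusted p = 0.00408). The annotated sugar-proton symporter AT5G10190 stood at 0.40, 0.42 and 0.38 until recovery, where it was 0.04, and narrowly missed the threshold (adjusted p = 0.0512). AT1G19450, with the same annotation, was low with EBR at 0 h and 1 h (-0.75 and -0.69), less so at 3 h (-0.23) and above 0 at recovery (0.13). Its mean of -0.39 ± 0.41 did not pass the test (adjusted p = 0.131).

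The 3 efflux carriers divided, with 2 that rose and 1 that fell. DTX1, a multidrug efflux carrier whose name stands for detoxification, had ratios of -0.86, -1.10, -0.93 and -0.25. Its mean of -0.78 ± 0.37 was the lowest of all members (adjusted p = 0.0118 by limma), and its recovery ratio stood apart from the other stages. AT4G21910, annotated with multidrug transport as well, lay on the opposite side of 0 with 0.79, 0.67, 0.54 and 0.60 (mean 0.65 ± 0.11, adjusted p = 0.00261). Its probe set may share probes with related genes, as its name marks, so its signal may not be from this locus alone. ABCG1, an ATP-binding cassette transporter, had 0.60, 0.52, 0.44 and 0.48 (mean 0.51 ± 0.069, adjusted p = 0.00481).

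Of the 6 genes of vesicle traffic and the endoplasmic reticulum, 4 rose and 0 fell by limma. SYP121 (PEN1), a plasma membrane syntaxin known for its part in defence against powdery mildew, had ratios of 0.25, 0.87, 0.87 and 0.19. Both heat stages were thus well above the unstressed and recovery stages (mean 0.54 ± 0.38, adjusted p = 0.0393 by limma). VAMP711, a SNARE protein of the vacuole, had 0.71, 0.33, 0.65 and 0.19. BI1, a BAX inhibitor that restrains cell death from the endoplasmic reticulum, had 0.33, 0.45, 0.47 and 0.49 and was the most even of the group (mean 0.43 ± 0.072, adjusted p = 0.00791). AT1G75760, annotated as a receptor for protein retention in the endoplasmic reticulum, had a mean of 0.36 ± 0.19 and rose (adjusted p = 0.034). DER1, a derlin that helps misfolded proteins leave the endoplasmic reticulum, stayed above 0 at 0.32, 0.20, 0.37 and 0.13 but did not pass the test (adjusted p = 0.0517). AT4G10170, annotated with vesicle-mediated transport, was below 0 at each stage, with a mean of -0.29 (adjusted p = 0.0654).

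Of the 10 membrane enzymes, 4 rose, 1 fell and 5 did not pass the test. AOX1D, an alternative oxidase that lets mitochondrial electron flow bypass the proton-pumping complexes, had ratios of 1.05, 1.36, 1.46 and 0.45. It was at least 2-fold higher before and during heat and lower at recovery than at any other stage (mean 1.08 ± 0.45, adjusted p = 0.00752 by limma). The control signals of AOX1D were low, at 6.36, 7.55 and 7.10 at 0 h, 1 h and 3 h in the authors' deposited tables. AT3G15350, annotated as an acetylglucosaminyltransferase, was instead highest at recovery, at 0.50, 0.26, 0.29 and 1.16 (adjusted p = 0.0487). GUS2, a glucuronidase, rose with 0.70, 0.94, 0.42 and 0.62. AT1G02270, annotated with catalytic activity and calcium binding, rose with 0.15, 0.42, 0.56 and 0.48.

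AMP1, a putative carboxypeptidase whose loss alters the shoot meristem, was the enzyme gene that fell, at -0.60, -0.42, -0.34 and -0.60 (mean -0.49 ± 0.13, adjusted p = 0.00811 by limma). GAE1, which makes the UDP-galacturonate used for pectin, was 2-fold higher at 0 h alone (1.04, 0.42, 0.15 and 0.31, adjusted p = 0.062). The wax biosynthesis gene CER3 was lowest at 1 h (-0.16, -0.57, -0.20 and -0.30, adjusted p = 0.0512). The other 3 enzymes changed sign between stages and had no call. The annotated transferase AT2G22900 had 0.66, 0.59, -0.06 and -0.07. AT1G16040, annotated with synthesis of glycosylphosphatidylinositol anchors, had 0.11, 0.38, 0.71 and -0.25. AT5G59500, annotated as a methyltransferase of prenylated cysteines, had -0.17, -0.25, -0.33 and 0.19.

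Among the 6 members of other or unannotated function, 3 rose and 1 fell. TSPO, a plant relative of the tryptophan-rich sensory proteins of bacteria, had ratios of 1.13, 1.10, 0.77 and 1.2 (mean 1.05 ± 0.19, adjusted p = 0.00143 by limma). AT3G28270 had 1.99 at 0 h, the highest ratio of any member at any stage, and then 0.92, 0.77 and 0.35 (mean 1.01 ± 0.70, adjusted p = 0.0307). No name or role is given for it in the files or the gene table. AT1G63010, a vacuolar membrane protein by the authors' annotation, rose with 0.67, 0.61, 0.41 and 0.47. ATL8, a RING-type protein of the ATL family, fell with -0.31, -1.06, -0.61 and -0.58 (mean -0.64 ± 0.31, adjusted p = 0.0144), its lowest ratio being that of 1 h heat. ATL78, of the same family, was 0.30, 0.20, -0.06 and 0.34 with no call (adjusted p = 0.177), and CASPL1E2, a CASP-like protein, went from 0.56 and 0.65 to 0.32 and 0.00 (adjusted p = 0.0626). In the authors' deposited table the EBR effect of CASPL1E2 was larger, at 1.56, 1.03 and 1.33 at 0 h, 1 h and 3 h.

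Many calls did not hold with fewer stages. When each stage was left out in turn, 13 of the 31 members that rose or fell passed limma's threshold every time. These were AT2G41190, ABCG1, TSPO, UMAMIT28, SIAR1, AT4G21910, SLAH3, GUS2, MSL6, AT1G63010 and SUC1, which rose, and CAT6 and NPF1.2, which fell. The other 18 lost the call in at least 1 case, and without 1 h heat 11 members rose and 2 fell. All 18 lost it without 1 h heat, among them VAMP711, whose 1 h ratio (0.33) was below its mean (0.47). The parts of the stage itself and of the smaller number of stages in these losses were not tested. No shares over all or over the other listed probe sets stand beside these counts. They describe the members' own calls and do not set the members apart.

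Recovery was then set against the mean of the other stages, to ask whether the EBR effect was carried past the heat. Most members kept their direction and came closer to control. The recovery ratio had the sign of the mean of the other stages in 39 of 44 members (88.6%), in 83.0% of the other listed probe sets and in 60.5% of all. It was closer to 0 in 29 members (65.9%), in 76.9% of the other listed probe sets and in 42.5% of all. The median size of the ratio, whatever its sign, was 0.59, 0.58, 0.49 and 0.36 (0 h to recovery), and over all probe sets it lay between 0.13 and 0.15. The tables list folds at 0 h, 1 h and 3 h and none at recovery, so that a smaller recovery ratio and the effect of that selection cannot be told apart.

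By limma's contrast of recovery with the other stages, 0 members were called after adjustment. An unadjusted p under 0.05 was found for 10 members (22.7%), for 38.4% of the other listed probe sets and for 13.3% of all. Of all probe sets 0.374% were called higher and 0.11% lower at recovery. The largest shifts were those of AT3G28270 (-0.87 ± 0.40 SE, adjusted p = 0.41 by limma), AOX1D (-0.84 ± 0.19, adjusted p = 0.115), AT3G15350 (0.81 ± 0.16, adjusted p = 0.0807) and DTX1 (0.72 ± 0.16, adjusted p = 0.111). AT1G19450 (0.68) and AT1G16040 (-0.65) followed. After quantile normalization of the ratios, an alternative added after the data were seen, AT3G15350 passed, as the single member called (0.99, adjusted p = 0.0482). Its ratios differ between sources, since the authors' deposited table gives EBR minus control of 1.09, 0.29 and 1.54 at 0 h, 1 h and 3 h, where the value table has 0.50, 0.26 and 0.29. The authors' deposited tables have no recovery stage and a different scale, so the recovery ratio of 1.16 cannot be ranked against their values. The shift of DTX1 was towards control and that of AT3G15350 away from it. The smallest shifts were those of AT4G10170 (0.0014), CER3 (0.0076) and AT2G41190 (0.016). At recovery 6 members were still at least 2-fold higher, namely AT2G41190 (1.58), SLAH3 (1.31), SIAR1 (1.23), TSPO (1.2), AT3G15350 (1.16) and UMAMIT28 (1.10).

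**Figure D2:**
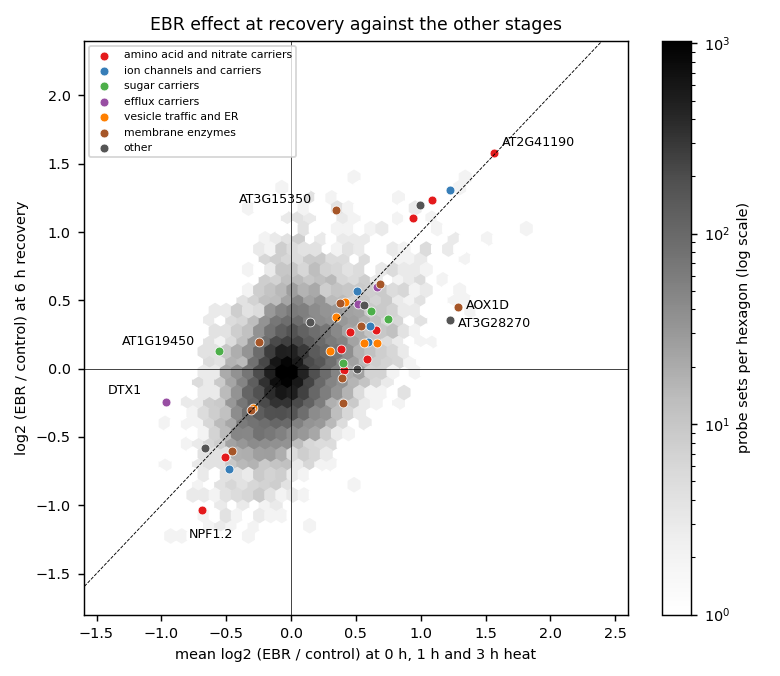
The horizontal axis is the mean log2 ratio of EBR to control at 0 h, 1 h and 3 h, and the vertical axis is the ratio at recovery; grey hexagons count all 22746 probe sets on a log scale, coloured points are the 44 genes by role, and the dashed line marks equal values. AT3G15350 stands above the line and AOX1D, AT3G28270 and several genes of smaller ratios stand below it, while AT2G41190 lies on it.

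Heat itself could be followed for 41 members, from the normalized log2 means that the authors' deposited table sets against unstressed control shoots. PHO1, AST56 and GUS2 were not in it. These means have no error, so the values are descriptions of 1 mean per group. They also took part in the selection, since 21 of the 44 members were listed only against this unstressed control. The counts past 2-fold below therefore partly restate how members were chosen. More members were lower than higher in heat. In the control arm 7 were at least 2-fold higher and 14 lower after 1 h, beside 11.3% and 20.5% of the 708 listed probe sets, and 8 were higher and 13 lower after 3 h, beside 10.2% and 22.3%. With EBR 4 were higher and 16 lower after 1 h (11.0% and 24.3% of those listed), and 6 were higher and 18 lower after 3 h (15% and 27.0%). In shares, the control arm had 17.1% of members higher and 34.1% lower after 1 h.

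The largest increases were those of DER1, AT1G16040 and BI1. In the authors' deposited table DER1 was higher by log2 4.07 after 1 h and 3.90 after 3 h in control shoots, and by 3.70 and 3.78 with EBR. AT1G16040 was higher by 3.31 and 3.14 in control and by 3.49 and 3.93 with EBR. BI1 was higher by 2.50 and 2.29 in control and by 2.48 and 2.47 with EBR. All 3 were far beyond 2-fold in both arms, and none of them reached 2-fold for EBR against control at any stage. They were listed only against the unstressed control and at no stage for EBR, so their entry into the set favours this pattern. SYP121 was higher by 1.16 and 1.17 in control and by 1.52 and 1.59 with EBR, in the authors' deposited table. AT1G75760, the annotated receptor for retention in the endoplasmic reticulum, was lower in the authors' deposited table, at -1.0 and -1.25 in control and -0.74 and -1.23 with EBR.

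The largest decreases included those of UMAMIT33, SUC1 and SIAR1, all carriers. In the authors' deposited table UMAMIT33 was at -2.38 and -2.13 after 1 h and 3 h in control shoots, SUC1 at -2.10 and -2.18 and SIAR1 at -2.09 and -2.38. SLAH3 (-1.25 and -2.29) and GAE1 (-1.83 and -2.27) were lower still after the longer heat, while AT5G59500 stood at -2.02 and -2.11. SUC1, SIAR1 and SLAH3 were thus lower in heat in both arms and higher with EBR than without it at each stage. ATL8 was lower in heat and lower with EBR; its heat changes were -2.05 and -1.28 in control and -2.89 and -1.99 with EBR, in the authors' deposited table.

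**Figure D3:**
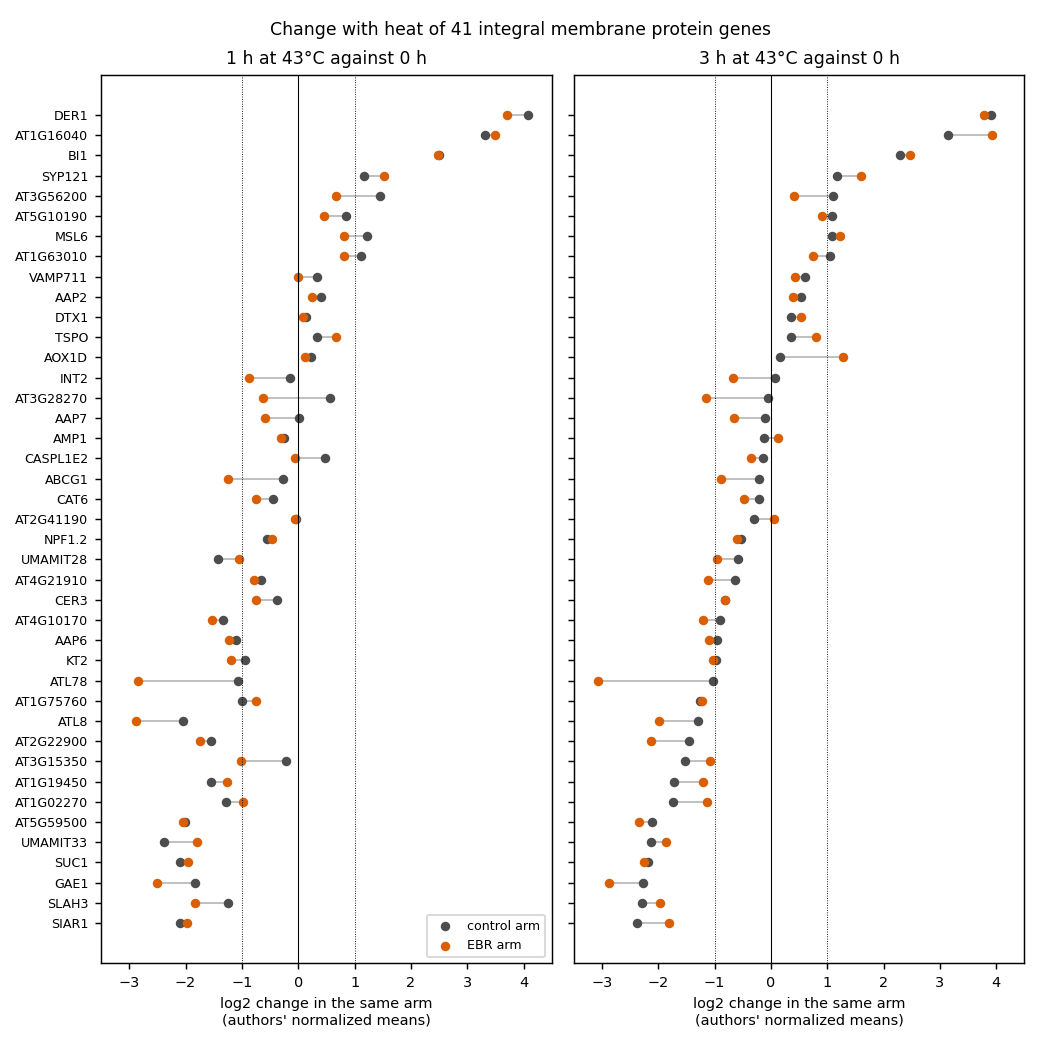
For 41 genes, ordered by their change after 3 h, the horizontal axis gives the log2 change from 0 h in the same arm after 1 h (left panel) and 3 h (right panel) at 43°C, from the authors' normalized means; grey points are the control arm and orange points the EBR arm, with no error available. DER1, AT1G16040 and BI1 lie farthest right in both arms, and the 2 points of ATL78 are the farthest apart.

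The change with heat was lower with EBR than in control in more members than not, with a smaller majority after 3 h. The difference of heat changes, EBR minus control, was below 0 in 30 of 41 members after 1 h and in 25 after 3 h. It was above 0 in 11 and 16 members, and below 0 in 56.2% and 54.1% of the listed probe sets. These differences share the 0 h groups, in which many members were selected for high EBR values, and they have no error or test. In the authors' deposited table they passed 2-fold in 2 of 41 members after 1 h and in 3 after 3 h (4.88% and 7.32%), beside 6.78% and 8.33% of all listed probe sets. ATL78 was at -1.06 and -1.02 in control but at -2.84 and -3.06 with EBR. AT3G28270 was at 0.56 and -0.04 in control and at -0.63 and -1.16 with EBR. AOX1D alone among them was higher with EBR, at 0.16 in control and 1.29 with EBR after 3 h. ABCG1 came next, at -0.28 in control and -1.25 with EBR after 1 h. The ratio of EBR to control for ATL78 at 0 h differed between the deposited sources, being 0.30 in the value table and 1.92 in the authors' deposited table. For ABCG1 the ratio was 0.60 at 0 h and 0.52 at 1 h in the value table. The authors' deposited values for it were 1.29 and 0.32. For AOX1D the ratio was 1.05 at 0 h and 1.46 at 3 h, where the authors' deposited values were 1.19 and 2.32. The shifts of ABCG1 and AOX1D were thus smaller in the value table. AT3G28270 moved alike in both sources, from 1.99 at 0 h to 0.77 at 3 h and from 2.28 to 1.16.

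The scale of the EBR effect differed between the deposited files in general. For members listed at a stage, the value-table log2 ratio was 0.67, 0.63 and 0.61 of the difference in the authors' deposited table at 0 h, 1 h and 3 h (medians). The signs were equal in 41 of 41, 44 of 44 and 40 of 41 members with both values, the exception being AT2G22900 at 3 h, with -0.06 in the value table and 0.29 in the authors' deposited table. The authors' deposited tables listed 17, 17 and 14 members at 2-fold or more at the 3 stages, 10 of them at all 3, and 21 appeared instead in the table against the unstressed control. Signal behind the listed values was often low: 8 of the 23 members with a listed signal had a control signal under 10 where listed, in files whose lowest listed signal was 3.55. The median control signal was 39.2 at 0 h, and GAE1 had the highest, 928. AAP7 (4.68) and ABCG1 (5.79) had the lowest control signals at 0 h. AOX1D was under 10 in control at 0 h, 1 h and 3 h (6.36, 7.55 and 7.10). The others were TSPO at 0 h (8.08), UMAMIT28 (8.12), AST56 (8.55) and PHO1 (9.09) at 1 h, and SLAH3 at 3 h (8.31). AT2G41190 had signals of 44.6, 50.2 and 42.3 in control and 203, 237 and 193 with EBR at 0 h, 1 h and 3 h in the authors' deposited tables.

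**Figure D4:**
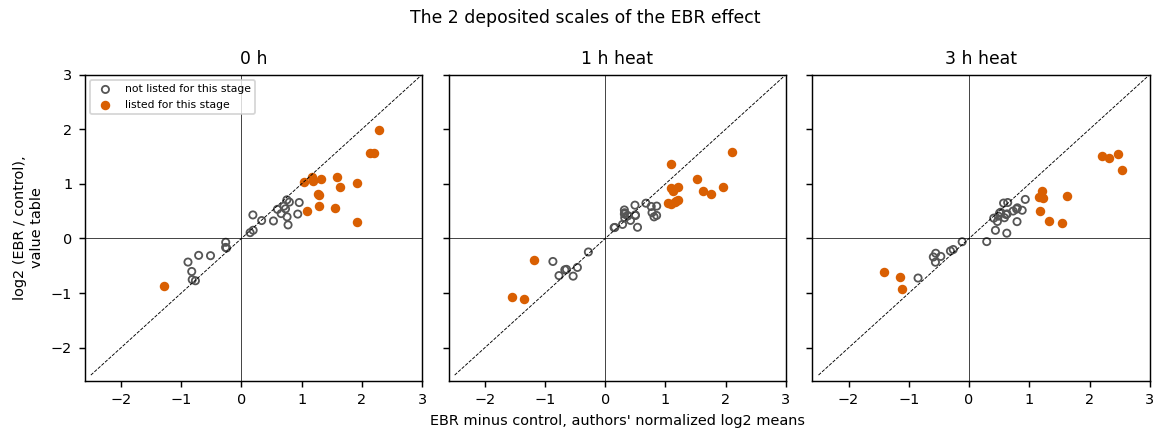
Each panel is 1 stage; the horizontal axis is EBR minus control in the authors' normalized log2 means, the vertical axis is the log2 ratio of the value table, and the dashed line marks equal values. Orange points are members the authors listed for that stage and open points are other members; at larger effects the points lie closer to 0 on the vertical axis than on the horizontal axis.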

How the data were processed

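The deposited value table holds a linear ratio per probe set and group, which the authors made from 3 replicate arrays. MAS5 and GCRMA are named in the submitters' processing notes, and their role and the way replicates were combined are not given in the sources used here. Control columns never exceed 1, so the deposited ratio was read as relative to the control of the same stage, an inference. The authors' deposited tables hold a fold, mean signal intensity and normalized log2 means per condition, per the file headers, without an error or a recovery stage.

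From the value table the log2 of EBR over control was computed at each of 4 stages. It was tested with limma 3.58.1 in R 4.3.3 over all 22746 probe sets, 11 array controls left out, with Benjamini-Hochberg adjustment at 0.05. The script was tested on simulated data. Treating stages as replicates means that p measures agreement between stages, which may share plant batches. The approximate SD takes a control value as the geometric over the arithmetic mean of its arrays, and EBR arrays were assumed to vary alike. The number of arrays limits precision. Planned lists by text pattern misplaced genes, so roles were assigned by hand with values known. Members and lists were chosen with earlier results of these data known. The rule for named genes took the extremes of each comparison and up to 5 members per role. It named 41 members, and AT2G22900, AAP2 and AAP6 were added after their values were seen. No genome build is named, so no coordinates are given. Other thresholds, centring, quantile normalization, robust variances, left-out stages and other member sets were tried.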

Additional observations from a re-analysis of the deposited data

Results flagged for a closer look

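Ratios of EBR to control that lay opposite to the mean over stages drew attention in 6 members. At 3 h of heat ATL78 and AT2G22900 had log2 ratios of -0.0596 and -0.0573, against means of 0.19 and 0.28. At recovery AT2G22900 stood at -0.0718, AT1G16040 at -0.25 and UMAMIT33 at -0.0134, each with a mean above 0. AT1G19450 (0.13) and AT5G59500 (0.19) were above 0 at recovery, with means of -0.39 and -0.14. By limma's contrast of recovery with the other stages none of these members was called, where 22.7% of the 44 members and 13.3% of all probe sets had an unadjusted p under 0.05. The differences at 3 h were not tested.

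Heat changes of opposite sign in the arms were found for 6 members in the authors' deposited table, with no error and no test of the difference. After 1 h AT3G28270 was at 0.56 in control and -0.63 with EBR, AAP7 at 0.01 in control and -0.59 with EBR, and CASPL1E2 at 0.47 in control and -0.0527 with EBR. After 3 h INT2 was at 0.08 in control and -0.67 with EBR, AMP1 at -0.11 in control and 0.118 with EBR, and AT2G41190 at -0.29 in control and 0.0522 with EBR. For CASPL1E2 the EBR ratio went from 0.56 at 0 h to 0.65 at 1 h in the value table, and from 1.56 to 1.03 in the authors' deposited table. For AT2G41190 it went from 1.56 at 0 h to 1.55 at 3 h, and from 2.13 to 2.48. In the other members named here both sources moved the same way.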

How the results depend on the processing

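No paired analysis was possible because the replicate arrays of each group are combined in 1 deposited value. The alternative counts that follow have no shares over other probe sets beside them, so they show only how the members' own counts move. With a 1.5-fold threshold 19, 18 and 12 members were higher at 0 h, 1 h and 3 h, and 7 were lower at some stage. By the authors' deposited table, added after the data were seen, 16, 14 and 11 were at least 2-fold higher. These restate the 2-fold threshold by which 17, 17 and 14 members, higher or lower, were listed at those stages. Among the 24 members with transport terms, 5 were 2-fold higher at 0 h, 2 at recovery, and 16 rose over the stages. In control shoots 2 of them were higher and 5 lower after 1 h of heat, and 3 higher and 4 lower after 3 h. With a stage left out, 11 to 32 members rose and 2 to 7 fell by limma. The fewest calls came without 1 h heat, and 16 members rose without 3 h heat, while 8 more members were called without recovery. No member changed direction in the mean over stages under any alternative run. After quantile normalization 1 member was called for recovery against the other stages. From the log2 of mean signal, AT2G41190 had a heat change after 1 h of 0.17 in control, with EBR minus control 0.0511 after 1 h and -0.000737 after 3 h, against -0.03, -0.03 and 0.34 from the normalized means. Counts of heat changes from mean signals were not run, since 12 members had such signals. The cause of these shifts was not tested. Low signals and 1 value per group limit every single-stage ratio.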
